A study of Homo sapiens with 6 samples.

Results

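The genes described here are 10 markers of fibroblasts and other stromal cells: PDGFRA, PDGFRB, THY1, DCN, LUM, POSTN, FN1, VIM, DDR2 and FBLN2. They were taken by symbol from a table of 35793 genes, all 10 were found once each, and all 10 passed the filter on low values that left 15536 genes for testing. The cells were cardiomyocytes differentiated from WTC11, an established human induced pluripotent stem cell line, in 6 libraries sampled on day 15. The first group was unedited (wild type, 3 biological replicates). The second came from a WTC11 derivative with a homozygous CRISPR/Cas9 knockout of STK25, a serine/threonine kinase of the STRIPAK phosphatase complex (also 3 replicates). Both groups received the same maintenance medium, RPMI with the B27 supplement, and no other treatment. The knockout was 1 line, so the edit and any other difference between the lines cannot be told apart.

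Fibroblasts of the heart build the interstitial matrix around the muscle cells. They arise mainly from the epicardium, and most carry the receptor kinase PDGFRA, while pericytes and smooth muscle cells carry its relative PDGFRB. In bulk RNA these genes mark a cell type only in part. VIM and FN1 are made by many kinds of cell, THY1 also by neurons, and more cells of a type cannot be told apart from more RNA per cell.

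The 10 genes lie on 9 chromosomes in GENCODE 29 (GRCh38), so they share no locus except for DCN and LUM. RefSeq promoter windows (GRCh38.p14) were held for 7 of the 10, with THY1, DCN and LUM lacking an entry. Shown are the 250 bases before the start site for PDGFRB and FN1, whose mean was higher in the knockout, and for POSTN, whose mean was lower, 5′ to 3′ on the gene's strand (minus in each case). Capitals mark matches, on either strand, to 5 motifs. These are the CCAAT box (letters CCAAT), the cAMP response element (letters TGACGTCA), the core of the TATA box (letters TATAA), the GC box (letters GGGCGG) and the motif of TEAD factors (letters GGAATG).
PDGFRB, chr5:150155846-150156095: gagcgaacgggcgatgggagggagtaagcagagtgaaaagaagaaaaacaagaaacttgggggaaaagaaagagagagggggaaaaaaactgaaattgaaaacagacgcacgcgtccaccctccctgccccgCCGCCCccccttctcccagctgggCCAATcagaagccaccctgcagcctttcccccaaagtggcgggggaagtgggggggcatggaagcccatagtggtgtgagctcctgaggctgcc
FN1, chr2:215436069-215436318: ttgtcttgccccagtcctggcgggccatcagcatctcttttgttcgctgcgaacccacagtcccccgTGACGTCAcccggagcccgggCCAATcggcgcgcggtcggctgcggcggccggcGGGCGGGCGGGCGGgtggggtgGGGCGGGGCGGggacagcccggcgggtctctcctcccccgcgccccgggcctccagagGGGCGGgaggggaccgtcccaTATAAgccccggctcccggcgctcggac
POSTN, chr13:37598769-37599018: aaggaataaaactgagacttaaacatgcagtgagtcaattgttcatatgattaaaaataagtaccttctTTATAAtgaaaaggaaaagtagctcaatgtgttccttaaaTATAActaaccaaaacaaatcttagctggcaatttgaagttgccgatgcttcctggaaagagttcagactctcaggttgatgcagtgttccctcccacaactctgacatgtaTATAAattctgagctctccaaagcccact

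The FN1 window held 1 cAMP response element, 183 to 176 bases before the start, a motif present in 1.63% of 34943 windows of this length. It also held 1 CCAAT box, 6 GC box matches, some of them overlapping, and a TATAA at 28 to 24 bases. Of its bases 76.4% were G or C, against a median of 58.0% over all windows. The PDGFRB window held 1 CCAAT box (94 to 90 bases before the start) and 1 GC box. POSTN had 4 TATAA matches, the nearest at 29 to 25 bases, no other motif searched, and a GC content of 36.4%. Those at 181 to 177 and at 180 to 176 bases overlap on opposite strands. CCAAT was found in 32.0% of all windows, TATAA in 19.0%, GGGCGG in 42.5% and GGAATG in 11.9%. GGAATG was in none of the 11 windows of the 7 genes, and no matches of different motifs overlapped. A match here is a run of letters and was not tested as a binding site. Distances are from the RefSeq start, and part of each printed window lies inside the gene's GENCODE span given below.

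Reads assigned to genes numbered from 22443904 to 53224112 per library. STK25, the targeted gene, had 8119 ± 1168 normalized counts in the wild type and 3720 ± 251 in the knockout (SD, n = 3 each), which is 45.8% of the wild-type mean (log2 fold change -1.12, SE 0.19, limma adjusted p = 0.00903). FARP2 overlaps STK25 on the other strand, so reads of that gene may be among them. Within each genotype 1 library stood apart from the other 2. The chi-square per degree of freedom over genes was 18.9 between wild-type replicates 1 and 3 but 162 and 325 against replicate 2, and 42.8 between knockout replicates 2 and 3 but 363 and 259 against replicate 1. TNNT2, the cardiac troponin T gene that marks cardiomyocytes, was between 206999 and 359162 normalized counts in all 6 libraries. A normalized count is a gene's reads scaled by a factor that each library has once. Genes were called at a Benjamini-Hochberg adjusted p under 0.05 over all genes tested, with limma on log2(value + 1), and every fold change below is knockout relative to wild type on that scale. The plot of normalized counts by library shows all 60 values of the 10 genes.

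**Figure D1:**
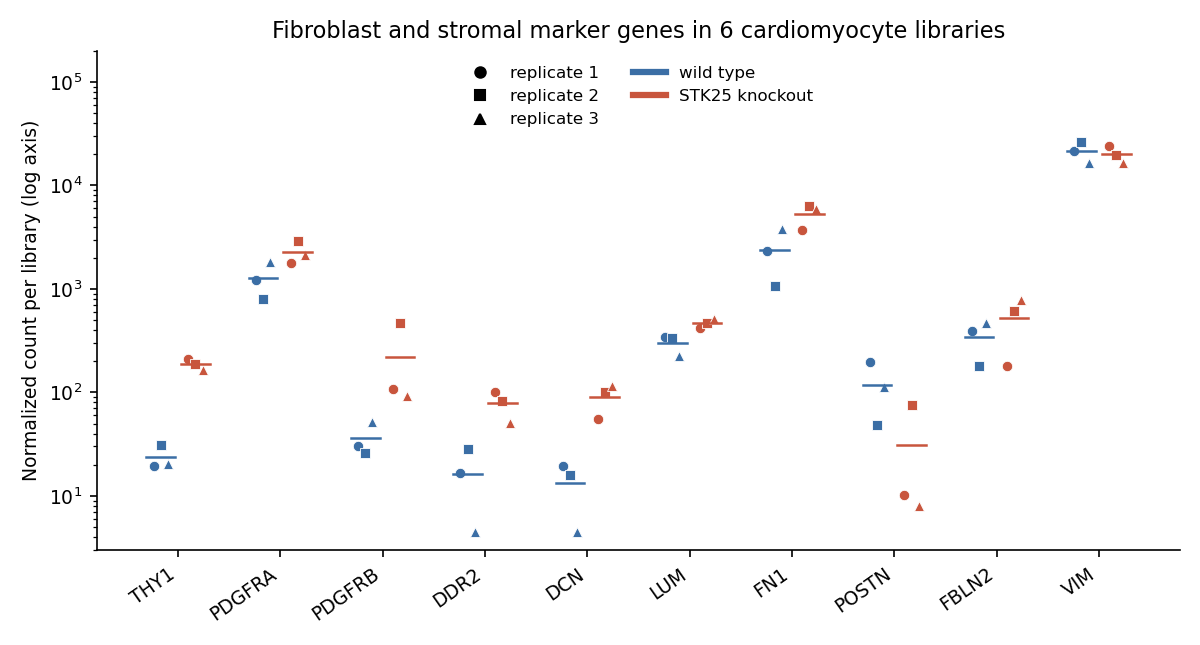
Normalized counts (log axis) of the 10 marker genes in each library, circles, squares and triangles for replicates 1, 2 and 3, with a bar at the mean of each genotype. THY1, PDGFRB, DDR2, DCN and LUM had all 3 knockout values above all 3 wild-type values, and the other 5 genes overlapped.

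THY1 and DCN were called higher in the knockout, and no member of the list was called lower. The 2 calls are 20.0% of the list, beside 12.8% of all tested genes. By direction, 5.97% of all tested genes were called higher and 6.79% lower. For 5 of the 10 the genotypes did not overlap, and the knockout was the higher one in all 5, while 33.4% of all tested genes did not overlap and 16.2% did so with the knockout higher. Fitted values were above 0 for 8 of the 10, against 50.4% of all tested genes, and the median log2 fold change of the list was 1.08, against 0.0052. An unadjusted p under 0.05 was met by 8 of the 10, against 27.5%. The list was chosen with earlier results of these data known, so these shares describe it and carry no test. THY1 alone was called higher without replicate 1 or 3 of the wild type or replicate 2 or 3 of the knockout, where 2.57%, 2.92%, 3.45% and 2.38% of all genes were, and with the replicate number as a block (2.24%). Without wild-type replicate 2 (4.94%) 3 were called higher, and 4 were with quantile normalization (6.43%) or with DESeq2 (10%). POSTN was called lower without knockout replicate 2, as were 4.87% of all genes.

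**Figure D2:**
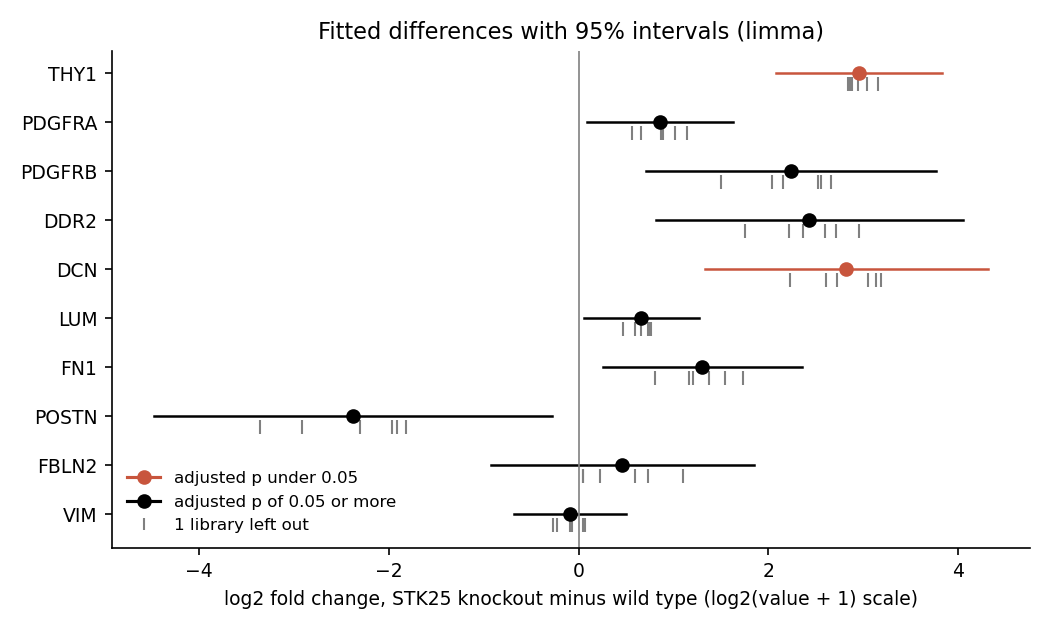
Log2 fold changes (limma, knockout minus wild type) with 95% intervals for the 10 genes, red where the adjusted p is under 0.05, and grey ticks for the 6 fits that each left out 1 library. THY1 (2.95) and DCN (2.82) are red, POSTN (-2.38) has the widest interval, and VIM (-0.09) lies at 0.

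Among the cell-surface proteins, THY1 (CD90, a glycolipid-anchored glycoprotein of fibroblasts, neurons and mesenchymal stem cells) had the lowest adjusted p of the list. The gene spans 119417378 to 119424985 of chromosome 11 (minus strand). The wild type had 19.6, 31.2 and 20.4 normalized counts, the knockout 208, 189 and 165. The lowest knockout value was well above the highest wild-type value, and the 3 knockout values were close together. Means were 23.8 ± 6.48 and 188 ± 21.6 (SD, n = 3 each), which limma fitted as 2.95 ± 0.38 (SE) on the log2 scale with an adjusted p of 0.00275, or 7.75-fold. The wild-type values rest on 13, 41 and 32 reads. THY1 remained past the threshold in all 18 alternative analyses, with adjusted p-values up to 0.0211.

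PDGFRA and PDGFRB, the receptor kinases for platelet-derived growth factor, were not called. PDGFRA (plus strand of chromosome 4, 54229097 to 54298247) had 1231, 807 and 1820 normalized counts in the wild type and 1769, 2895 and 2103 in the knockout. The highest wild-type library was just above the lowest knockout library, so the groups overlapped. limma fitted 0.86 in log2, with a 95% interval from 0.091 to 1.62 (limma adjusted p = 0.139).

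PDGFRB (minus strand of chromosome 5, 150113837 to 150155872) was far lower, at 30.2, 25.9 and 51.7 normalized counts in the wild type and 107, 466 and 91.5 in the knockout. Knockout replicate 2 stood over 4 times above the other knockout libraries, which were themselves above every wild-type library. The log2 fold change of 2.24 (SE 0.66, limma adjusted p = 0.0658) went down to 1.50 without that library. DESeq2 put PDGFRB past the threshold (adjusted p = 0.00171), while edgeR's quasi-likelihood test did not (adjusted p = 0.0552).

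The ligands of these receptors were PDGFA, PDGFB, PDGFC and PDGFD, 4 of 4 tested, of which 1 was called (25.0%, beside 12.8% of all tested genes). PDGFB rose in the knockout, from 88.0 ± 8.18 (SD, n = 3) to 267 ± 95.6 normalized counts (SD, n = 3), a fitted 1.52 ± 0.37 (SE) in log2 (limma adjusted p = 0.0342). This call was lost in 8 of the 18 alternatives, among them those without wild-type replicate 1, 2 or 3 or without knockout replicate 2 or 3 (adjusted p from 0.0674 to 0.132). PDGFA had 144, 269 and 131 normalized counts in the wild type and 900, 356 and 388 in the knockout, without overlap (limma adjusted p = 0.0631). PDGFD had the most reads of the 4 and overlapped between genotypes.

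DDR2, a receptor kinase activated by fibrillar collagen, had few reads in the wild type. The gene spans 162631373 to 162787400 of chromosome 1 (plus strand). The wild type had 16.6, 28.2 and 4.47 normalized counts, from 11, 37 and 7 reads, and the knockout 102, 82.5 and 50.7. The groups did not overlap, but the log2 fold change of 2.43 (SE 0.70) missed the threshold (limma adjusted p = 0.0602). It was called with DESeq2, a pseudocount of 10, quantile normalization or without wild-type replicate 2.

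DDR1, the relative of DDR2 that is found mostly in epithelia, fell to 1721 ± 404 normalized counts from 3523 ± 592 (SD, n = 3 each), a fitted -1.05 ± 0.24 (SE) in log2 (limma adjusted p = 0.0292). That call was lost without replicate 1 or 3 of the wild type or replicate 3 of the knockout, where the adjusted p was 0.0847 to 0.115. Within a library the normalized count of DDR2 was 0.00478, 0.00954 and 0.00108 of that of DDR1 in the wild type and 0.0799, 0.0402 and 0.0276 in the knockout. Every knockout ratio was above every wild-type ratio.

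DCN (decorin) and LUM (lumican) are small leucine-rich proteoglycans that bind collagen fibrils and regulate their assembly. The genes are neighbours on the minus strand of chromosome 12, LUM from 91102629 to 91111831 and DCN from 91140484 to 91183123, with 28652 bases between them. KERA and EPYC, the next proteoglycan genes of that cluster, had no read in any library.

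DCN had 19.6, 16.0 and 4.47 normalized counts in the wild type, from 13, 21 and 7 reads, and 55.9, 100.3 and 116 in the knockout. Even the lowest knockout library lay above the highest wild-type library. Means were 13.4 ± 7.92 and 90.9 ± 31.3 (SD, n = 3 each), which limma fitted as 2.82 ± 0.64 (SE) on the log2 scale with an adjusted p of 0.0276, or 7.07-fold. DCN was no longer called when replicate 1 or 3 of the wild type or replicate 2 or 3 of the knockout was left out (adjusted p from 0.0558 to 0.112), was still called without replicate 2 of the wild type (0.0470) or replicate 1 of the knockout (0.0274), and its fitted log2 value stayed between 2.23 and 3.19 when any 1 library was left out.

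LUM had 340, 333 and 225 normalized counts in the wild type and 423, 469 and 507 in the knockout. These groups did not overlap either, but the gap was small. The fitted difference was 0.66 in log2 with a 95% interval from 0.052 to 1.27 (limma adjusted p = 0.149). The ratio of DCN to LUM within a library was 0.0578, 0.0481 and 0.0199 in the wild type and 0.132, 0.214 and 0.230 in the knockout, so DCN gained on its neighbour in every knockout library. Of 12 other genes of this proteoglycan family 2 passed the filter and none was called. BGN (biglycan), the closest relative of DCN, was among those that did not pass, at 9.06, 0.762 and 0 normalized counts in the wild type and 28.0, 2.23 and 16.9 in the knockout.

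FN1, POSTN and FBLN2 encode matrix proteins, and none was called. FN1 (fibronectin, the adhesive glycoprotein on which other matrix assembles) spans 215360440 to 215436172 of chromosome 2 (minus strand). Its window, printed above, was the only one of the 3 with a cAMP response element. It had 2302, 1057 and 3807 normalized counts in the wild type and 3723, 6277 and 5962 in the knockout. Wild-type replicate 3 was above knockout replicate 1, and the other values did not cross. Fitted on the log2 scale the difference was 1.30 with a 95% interval from 0.26 to 2.35 (limma adjusted p = 0.105), and 0.81 without wild-type replicate 2.

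POSTN (periostin, a matricellular protein of activated fibroblasts and developing valves) was the only member apart from VIM with a lower fitted value in the knockout. The gene spans 37562583 to 37598844 of chromosome 13 (minus strand). The wild type had 195, 48.0 and 113 normalized counts, the knockout 10.2, 75.8 and 8.0. Knockout replicates 1 and 3 held 8 and 9 reads, but knockout replicate 2 was above wild-type replicate 2. Fitted at -2.38 in log2, the difference had a 95% interval from -4.48 to -0.28 (limma adjusted p = 0.134). Without knockout replicate 2 it was -3.36 and past the threshold (limma adjusted p = 0.0322).

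FBLN2 (fibulin 2, which links fibronectin, basement membrane and elastic fibres) spans 13549131 to 13638422 of chromosome 3 (plus strand). It had 388, 180 and 469 normalized counts in the wild type and 179, 610 and 779 in the knockout. Knockout replicate 1 was level with the lowest wild-type library and the other 2 were above all of them. On the log2 scale limma gave 0.46 with a 95% interval from -0.93 to 1.85 (limma adjusted p = 0.685), and it ran from 0.04 without wild-type replicate 2 to 1.10 without knockout replicate 1.

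VIM (vimentin, the intermediate filament of mesenchymal cells) showed the smallest difference of the 10. The gene spans 17228259 to 17237593 of chromosome 10 (plus strand). Values were 21663, 26351 and 16326 normalized counts in the wild type and 23969, 19651 and 16362 in the knockout, with nearly the same range. The log2 fold change was -0.09 with a 95% interval from -0.68 to 0.49 (limma adjusted p = 0.863), and turned positive without replicate 2 of the wild type (0.071) or replicate 3 of the knockout (0.044). Equal totals put it at -0.37 and quantile normalization at -0.39. VIM made up from 62.6% to 91.3% of the summed normalized counts of the 10 genes. The sum of the other 9 was 4542, 2526 and 6515 in the wild type and 6578, 11165 and 9782 in the knockout.

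Levels of different genes were compared per kilobase of the median annotated transcript. VIM was first in both genotypes, at 20416 ± 4775 normalized counts per kilobase in the wild type and 19033 ± 3632 in the knockout (SD, n = 3 each). PDGFRA followed at 1342 ± 531 and 2353 ± 603 per kilobase and FN1 at 1000.3 ± 577 and 2228 ± 583, and these neighbours overlapped in both genotypes. FBLN2, LUM, PDGFRB, THY1, POSTN, DCN and DDR2 came next in the wild type, where only VIM and PDGFRA, and LUM and PDGFRB, did not overlap with the gene that followed. At the lower end DDR2 was at 8.84 ± 6.38 per kilobase in the wild type, and POSTN was last in the knockout at 10.1 ± 12.5. With the longest transcript in place of the median, VIM was still first, FN1 and PDGFRA changed places, and 14 of the 20 ranks over both genotypes moved.

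Ratios of 2 genes in the same library do not depend, apart from the pseudocount, on how libraries are scaled, and 7 were compared. In 3 of them the genotypes did not overlap: PDGFRA to PDGFRB was lower in the knockout, and DCN to LUM and DDR2 to DDR1 were higher. On the log2(value + 1) scale PDGFRA to PDGFRB went from 5.11 ± 0.20 to 3.73 ± 0.98, a difference of -1.38. DCN to LUM went from -4.57 ± 0.70 to -2.41 ± 0.43, a difference of 2.16, and DDR2 to DDR1 from -7.95 ± 1.48 to -4.47 ± 0.77, a difference of 3.48 (SD, n = 3 each). Exact two-sided permutation tests gave p = 0.1 for each, the smallest p that 3 against 3 allows (0.233 after Benjamini-Hochberg adjustment over the 7). With 1 library left out the difference for PDGFRA to PDGFRB was -0.84 without knockout replicate 2, the library with the high PDGFRB value, and ran to -1.77 without knockout replicate 3. Those for DCN to LUM and DDR2 to DDR1 ran from 1.76 to 2.42 and from 2.68 to 4.13. The ratios FN1 to VIM, FBLN2 to FBLN1, POSTN to TGFBI and VIM to DES overlapped, with exact permutation p from 0.2 to 0.7. An eighth ratio, THY1 to NT5E, was not computed because NT5E had no read in any library.

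**Figure D3:**
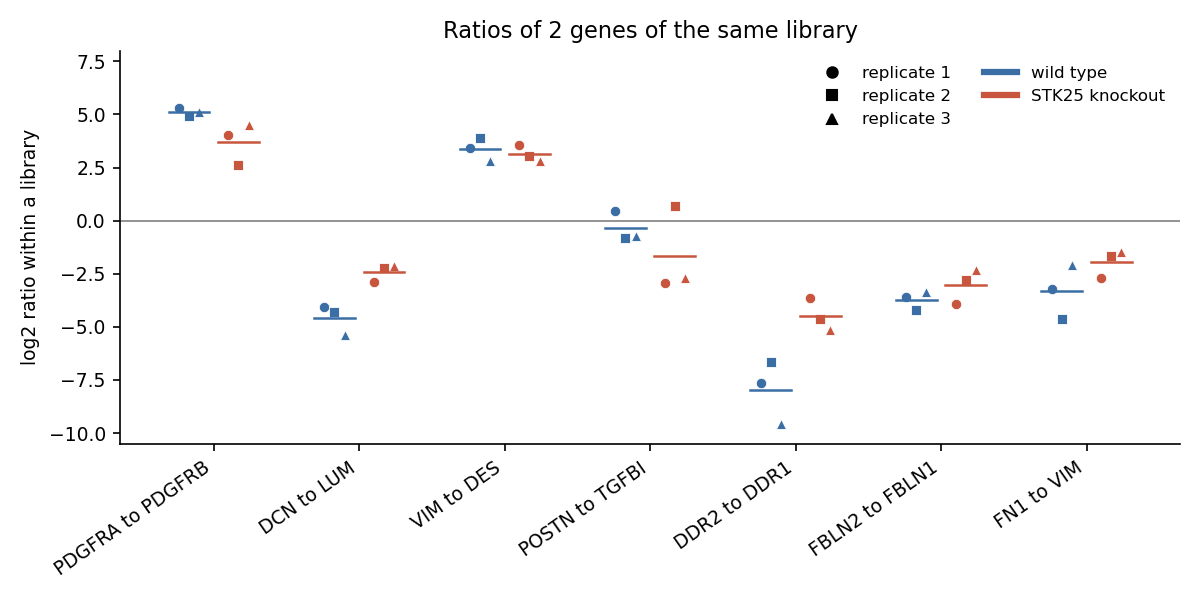
Log2 ratios of 2 genes within each library, circles, squares and triangles for replicates 1, 2 and 3, with a bar at the mean of each genotype. PDGFRA to PDGFRB lies lower in all 3 knockout libraries, and DCN to LUM and DDR2 to DDR1 lie higher.

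The 10 genes did not follow 1 common order among replicates. In the wild type, replicate 2 had the lowest value of its genotype for PDGFRA, PDGFRB, POSTN, FN1 and FBLN2 and the highest for THY1, VIM and DDR2. In the knockout, replicate 1 had the highest value for the same 3 genes, THY1, VIM and DDR2, and the lowest for PDGFRA, DCN, LUM, FN1 and FBLN2. Knockout replicate 2 was the highest for PDGFRA, PDGFRB, POSTN and FN1 and the lowest for none.

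Other genes of the stroma were taken from 10 lists, and they moved in both directions. Of 14 tested fibrillar collagen and collagen-processing genes 5 were called, 2 higher and 3 lower (35.7%, beside 12.8% of all tested genes). Their median was -0.04 (-0.32 with equal totals, -0.11 with quantile normalization). COL3A1 rose from 760 ± 409 to 4446 ± 1939 normalized counts and COL11A1 from 31.0 ± 17.5 to 175 ± 55.6, fitted at 2.61 and 2.60 in log2 (limma adjusted p = 0.0172 and 0.0224). COL1A2 fell from 7514 ± 2839 to 240 ± 124, COL5A2 from 5178 ± 2013 to 1165 ± 332 and the procollagen enhancer PCOLCE from 806 ± 69.5 to 386 ± 83.6 (SD, n = 3 each). Their log2 fold changes were -5.01, -2.11 and -1.08 (limma adjusted p = 0.000616, 0.00921 and 0.0253). COL1A1, the partner chain of COL1A2 in type I collagen, had 9550.5, 7131 and 14000.5 normalized counts in the wild type and 2969, 6215 and 5193 in the knockout (limma adjusted p = 0.0789). The COL3A1 and COL11A1 calls were lost without replicate 1 of the wild type or replicate 2 or 3 of the knockout (adjusted p from 0.0524 to 0.0953). PCOLCE lost its call without any library but knockout replicate 1 (0.0652 to 0.107), and COL5A2 without wild-type replicate 1 (0.0509).

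Of 6 crosslinking enzymes 3 were called, all lower, and the median was -1.38. LOXL1, LOXL3 and TGM2 fell by 2.08, 1.53 and 1.23 on the log2 scale (limma adjusted p = 0.0133, 0.0257 and 0.0446). LOX itself had 30.2, 14.5 and 3.83 normalized counts in the wild type and 57.2, 91.4 and 114 in the knockout (limma adjusted p = 0.0520). LOXL1 was not called without wild-type replicate 1 (adjusted p = 0.0705), nor LOXL3 without wild-type replicates 1 or 3 or knockout replicate 3 (0.0659 to 0.120). TGM2 was not called with equal totals (0.0505), nor without any library but wild-type replicate 2 (0.0641 to 0.166). Among 16 fibulin and elastic fibre genes, relatives and partners of FBLN2, 5 were called (31.25%, beside 12.8% of all tested genes). All 5 were lower, and the list's median was -0.42 (-0.70 with equal totals). MFAP4 fell from 634 ± 151 to 31.8 ± 14.0 normalized counts and FBN2 (fibrillin 2) from 8930 ± 1867 to 2790 ± 422 (SD, n = 3 each). In log2 terms they were fitted at -4.35 and -1.67 (limma adjusted p = 0.000983 and 0.00363), and HMCN1, LTBP3 and LTBP4 were the others. LTBP4 lost its call without wild-type replicates 1 or 3 or knockout replicates 2 or 3 (adjusted p from 0.0671 to 0.141). FBLN1 (fibulin 1) had a log2 fold change of -0.25 (limma adjusted p = 0.572).

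Of 15 receptors and matricellular partners of fibronectin and periostin 1 was called (6.67%, beside 12.8% of all tested genes). CCN2, a matricellular growth factor known as CTGF, rose to 37353 ± 9659 normalized counts from 6728 ± 1082 (SD, n = 3 each), a fitted 2.45 in log2 (limma adjusted p = 0.00126). ITGA5 and ITGB1, the chains of the main fibronectin receptor, were fitted at 0.26 and 0.49 (limma adjusted p = 0.780 and 0.388). TGFBI, the relative of POSTN, was at -1.09 (limma adjusted p = 0.145). The list's median was 0.31, and 0.04 with equal totals or 0.19 with quantile normalization.

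Of 11 genes of transforming growth factor beta signalling, which drives fibroblast activation, 2 were called (18.2%, beside 12.8% of all tested genes). TGFB2, a ligand, rose by 1.17 and TGFBR3, a co-receptor, fell by 2.89 on the log2 scale (limma adjusted p = 0.0149 and 0.0303). TGFB2 was not called with equal totals (0.0988), nor without wild-type replicate 3 or knockout replicates 2 or 3 (0.0514 to 0.0609). TGFBR3 was not called without wild-type replicates 1, 2 or 3 or knockout replicate 3 (0.0563 to 0.128). The list's median of 0.01 was -0.27 with equal totals and, under quantile normalization, 0.11. Of 10 intermediate filament genes and linkers, the family of VIM, 5 were called. SYNM, KRT8 and KRT18 rose and LMNB1 and KRT19 fell, fitted in that order at 1.11, 1.14, 1.61, -1.57 and -1.38 in log2 (limma adjusted p = 0.0195, 0.0218, 0.00348, 0.0283 and 0.00341). DES, the muscle filament, was at 0.13 (limma adjusted p = 0.730), and the median was -0.01, which was 0.02 with equal upper quartiles, -0.10 with quantile normalization and -0.29 with equal totals. KRT8 was not called with equal totals (0.0692) or quantile normalization (0.219), nor without any library but knockout replicate 1 (0.0606 to 0.106). SYNM lost its call with equal totals (0.0628), and without wild-type replicate 1 or knockout replicates 2 or 3 (0.0519 to 0.0967). LMNB1 lost its call without wild-type replicates 1, 2 or 3 or knockout replicate 3 (0.0649 to 0.112).

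Transcription factors of mesenchymal cells were called in both directions. Of 8 tested, TCF21, PRRX1 and SNAI2 rose and FOXF1 fell, with a median of 0.10 that was -0.18 with equal totals. TCF21, which specifies the fibroblast lineage in the epicardium, had 3.02, 57.1 and 6.38 normalized counts in the wild type and 543, 447 and 411 in the knockout (log2 fold change 5.28, SE 0.90, limma adjusted p = 0.00952). The knockout libraries all held over 400 reads, and wild-type replicate 2 held 75. SNAI2 rose from 115 ± 32.5 to 400 ± 83.9 (SD, n = 3 each), a fitted 1.80 in log2 (limma adjusted p = 0.0105). PRRX1 had 22.7, 0 and 0.638 normalized counts in the wild type and 67.4, 52.4 and 92.4 in the knockout (limma adjusted p = 0.0479), and its call was lost in 13 of the 18 alternatives, with every single library left out except wild-type replicate 1 (0.0796 to 0.157). FOXF1 had 0, 3 and 0 reads in the knockout libraries and was at least 8.70-fold lower there, set against 3 reads per knockout library (limma adjusted p = 0.0260). Its call was lost without wild-type replicates 1, 2 or 3 or knockout replicate 3 (0.0721 to 0.126), and that of SNAI2 without knockout replicate 3 (0.0530).

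The last list held 17 further fibroblast and mesenchymal markers, of which 11 were tested. None was called higher and 4 were lower, S100A4, IGFBP5, SFRP1 and DDR1, with a median of -0.54 (-0.82 with equal totals and -0.31 with quantile normalization). S100A4 (fibroblast-specific protein 1) fell from 9414 ± 3400 to 1652 ± 811 normalized counts and IGFBP5 from 4215 ± 1121 to 585 ± 112 (SD, n = 3 each), fitted at -2.56 and -2.83 in log2 (limma adjusted p = 0.00511 and 0.000696). FAP and NT5E, which are used to define activated fibroblasts and mesenchymal stromal cells, had no read in any library. DPT, PI16, CD34 and MGP did not pass the filter. SFRP1 lost its call without wild-type replicate 1 (0.0631) or knockout replicate 3 (0.0594).

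**Figure D4:**
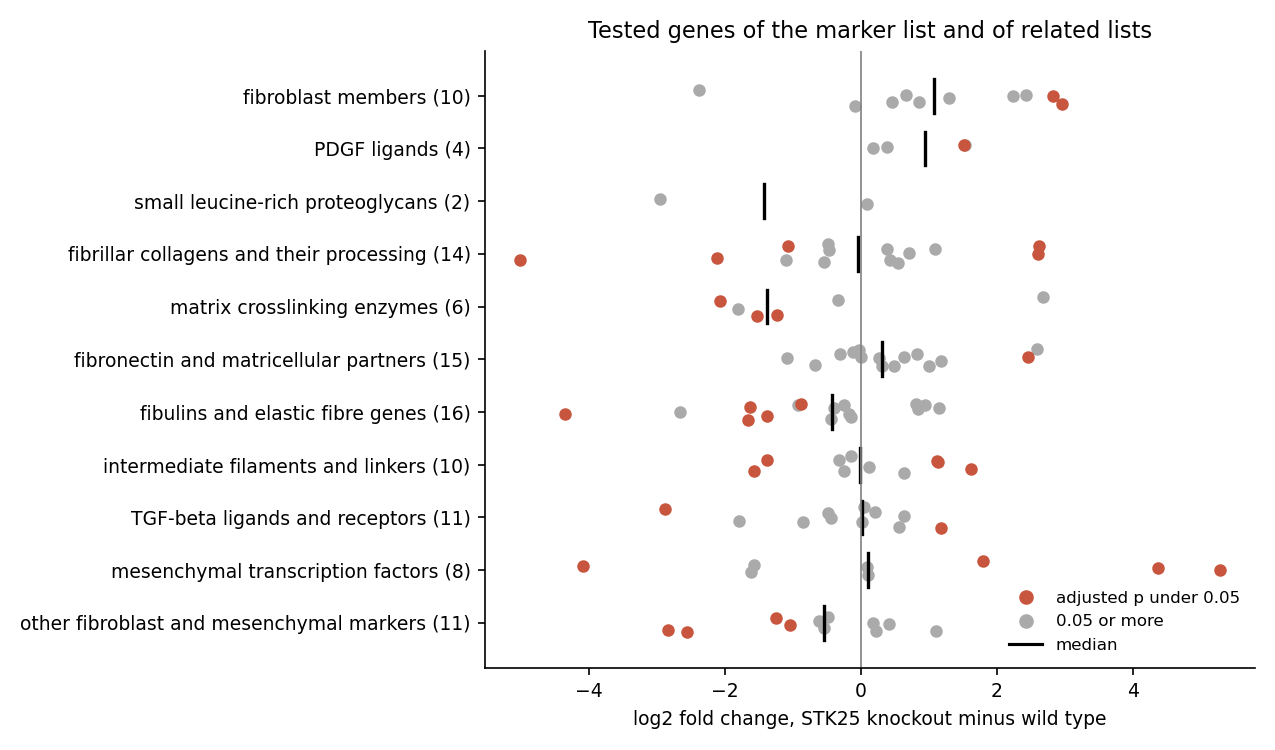
Log2 fold changes of every tested gene in the 10-gene marker list (top) and in 10 related lists, with the number tested in brackets, red where the adjusted p is under 0.05 and a black bar at each median. The marker list has a median of 1.08, the crosslinking enzymes one of -1.38, and the collagens and transcription factors have red points on both sides of 0.

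Markers of other cell types were compared in the same way, beside the 12.8% of all tested genes that were called. Called genes made up 36.4% of the tested smooth muscle and pericyte markers, 33.3% of the epicardial and mesothelial and 60.0% of the neural ones. They were 14.3% of the cardiomyocyte, 25.0% of the endoderm and 14.3% of the pluripotency markers. Of 11 tested smooth muscle and pericyte markers 4 rose (ACTA2, TAGLN, MYH11 and CNN1), and the median of the list was 0.13, which was -0.15 with equal totals. The summed level of that list spanned 95545 to 107823 normalized counts in wild-type and 505474 to 551948 in knockout libraries, and most of it was ACTA2, with means of 49466 and 389103. The pericyte markers RGS5, CSPG4, NOTCH3, KCNJ8 and ABCC9 were fitted at -0.13, -1.68, -0.35, 0.10 and 0.13 in log2. MYOCD, a smooth muscle cofactor, was at -0.63, and none of these was called. MCAM, the remaining tested marker of the list, was not called either, and its fitted value was no lower than the list's median. HIGD1B was at 0 in 5 of the 6 libraries. Of 9 epicardial and mesothelial markers ALDH1A2 and CALB2 rose and KRT19 fell, with a median of 1.22. Of these 9 markers 6 did not overlap between genotypes, beside 33.4% of all tested genes. WT1, TBX18 and SEMA3D did not overlap and were not called. Their means were 17.3 and 112, 109 and 244, and 8.74 and 58.2 normalized counts in wild type and knockout. Sums over this list, from 16299 to 17848 and from 7491 to 10549, were mostly KRT19, whose means were 12908 and 4910. MSLN had at most 1 read per library. Of 5 neural markers SOX2, PAX6 and TUBB3 rose, with sums from 58.7 to 136 and from 487 to 821, while SOX1 had at most 1 read in any library. None of 5 tested endothelial markers was called, with sums from 539 to 1202 and from 712 to 1088, and CDH5 had at most 1 read per library. Of 14 cardiomyocyte markers NKX2-5 and PLN were called lower and none was called higher, with a median of 0.64 (0.36 with equal totals, 0.09 with quantile normalization). Genotypes did not overlap for 9 of the 14, against 33.4% of all tested genes. Of those not called, MYH7, ACTN2, TTN, TNNI3, TNNC1 and MYL7 were higher in the knockout and MYH6 was lower. Sums over the cardiomyocyte list were from 1528324 to 1922122 and from 2174524 to 3969637. Endoderm markers gave 1 call of 4, AFP, which was lower, with FOXA2 at 0 throughout (sums from 1685 to 3050 and from 1210 to 1267). Pluripotency markers gave 1 of 7, TDGF1, which was higher, with a median of 0.12 that was -0.15 with equal totals (sums from 1334 to 1777 and from 3572 to 4961). When 1 library was left out, CNN1 lost its call in every case but knockout replicate 1 (adjusted p from 0.0550 to 0.107), and PLN likewise (0.0940 to 0.176). PAX6 lost its call in all 6 cases (0.0507 to 0.127) and ALDH1A2 without knockout replicate 3 (0.0660). With all 6 libraries, CNN1 was not called with equal totals (limma adjusted p = 0.109) or quantile normalization (0.237). PLN was not called with equal upper quartiles (0.111) or no filter (0.119). The part of these cell types in the differences of THY1, DCN and the other 8 genes was not tested.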

How the data were processed

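RNA was measured in 3 wild-type and 3 STK25 knockout libraries, made per the labels' protocols from column-purified, DNase-treated RNA with the Clontech Ultra Low v4 and NexteraXT kits. The submitters' processing notes name bcl2fastq 2.19, kallisto 0.44.0, DESeq2 1.28.1 and the build GRCh38; the annotation and the use of strand are not given in the sources used here. The deposited table holds a signal that the authors call normalized counts. In every column 100% of values were whole multiples, within 1e-06, of 1 step per library. That step was taken as 1 read, so reads were recovered by division. Because kallisto gives fractional estimates and no rounding is stated, the reads named here are estimates. Depth limits the precision of low genes. The reads carry no molecular identifiers, and counting error worked out from them is only part of the spread between replicates. Samples were matched by column name, 0 columns were left unused, and no 2 replicates agreed within sampling noise.

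limma 3.58.1 (R 4.3.3; lmFit, eBayes with trend, no covariate) was applied to log2(value + 1), keeping genes that averaged 10 or more, two-sided, with Benjamini-Hochberg adjustment over all 15536 genes. The labels call the replicates biological without saying how cultures were separated, so p-values measure the spread between these libraries. The recovered reads went into edgeR 4.0.16 and DESeq2 1.42.0, which made 1864 and 3210 calls. The code of the fits was run on simulated independent counts, with an equal dispersion for all genes and no outlying library. That run does not measure error rates in these data. Positions and transcript lengths came from GENCODE 29 and promoters from RefSeq. Antisense genes overlap THY1 and VIM in GENCODE 29, and their reads cannot be told apart without strand.

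The 10 genes, the lists and the tests were chosen with earlier results of these data known. The genes named are the 10, STK25, and in the lists those with an adjusted p under 0.05; other genes named were chosen after their values were seen. Alternatives were pseudocounts of 0.1 and 10, a filter at 50 or none, 3 scalings, a replicate block, eBayes robust or with no trend, edgeR, DESeq2, and leaving out each library. Figures were drawn with matplotlib 3.10.9.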

Additional observations from a re-analysis of the deposited data

How the results depend on the processing

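Of the 10 genes, THY1 kept its call in all 18 alternatives and DCN in 13. The 2 members called higher became 4 with quantile normalization or DESeq2 and 1 with the replicate number as a block, with a span of 1 to 3 over the 6 fits that left out a library. The members called lower (0) ran from 0 to 1 there, where POSTN passed without knockout replicate 2. The list's median log2 fold change of 1.08 ran from 0.78 to 1.44, that of VIM from -0.27 to 0.071, and the difference in the log2 ratio of VIM to DES from -0.50 to 0.035 with 1 library left out. Equal totals put VIM at -0.37 and quantile normalization at -0.39, the lowest of its 18 alternatives. The 1982 genes called ran from 796 to 2181 with 1 library left out, were 798 with the block and 3210 with DESeq2. Equal totals lowered the median of all genes by 0.28 and left that of the list 1.07 above it, as in the main analysis. No pairing by replicate number was seen: deviations from the genotype mean correlated from -0.40 to 0.17 between same-numbered libraries, and 1 of 6 libraries correlated best with its own number. With few libraries per genotype, of which 1 stands apart, these correlations cannot exclude a pairing. Under the block DCN had an adjusted p of 0.0856 and THY1 of 0.0211. Of 45 called genes in all lists 22 lost their call under the block and from 3 to 22 without 1 library. For genes near 10 normalized counts, such as DCN and DDR2 in the wild type, the depth gives 7 to 37 reads, which limits the precision of the fold change. Its size also depended on the pseudocount. DCN was fitted at 2.94 with a pseudocount of 0.1 and at 2.12 with 10, and DDR2 at 2.54 and 1.80.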
